A study of Limodorum abortivum with 6 samples.

Results

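Of the genes assembled from the roots of the orchid *Limodorum abortivum*, 4 were chosen that encode glycoside hydrolases of starch or of plant cell wall polysaccharides. They are not all the genes of this kind in the assembly. They are MSTRG.677 (beta-amylase, family GH14), MSTRG.787 (xyloglucan endotransglucosylase/hydrolase or XTH, family GH16), MSTRG.975 (alpha-L-fucosidase, family GH95) and MSTRG.2001 (probable beta-D-xylosidase, family GH3). They were taken by identifier from the 100005 genes of the count files, whose names and families come from the study's plant gene annotation. All 4 were classified there under the orchid *Dendrobium catenatum*, and none shares its Trinity gene with another of the 1159 plant genes whose annotation was used here.

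RNA came from root segments of wild adult plants at a single site, with 3 libraries of mycorrhizal roots, called LM (LM3, LM4, LM6), and 3 of non-mycorrhizal roots, called LS (LS2, LS3, LS6). Colonized roots were chosen by their thickness, their dark color and hand sections, and the main symbiont at the site is a fungus close to *Russula delica*. The segments came from different individuals, of no stated age or genotype, but whether a library holds 1 plant or several is not stated. Both kinds of root also carry other fungi, so LS is a root without the mycorrhizal symbiont rather than a root without fungi.

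Beta-amylase releases maltose from the ends of starch chains, and the cortex of orchid roots stores starch in plastids. XTH enzymes cut and rejoin xyloglucan, the polymer that ties cellulose microfibrils together in the primary wall. Alpha-L-fucosidases of this type remove fucose from xyloglucan side chains in *Arabidopsis*, and beta-D-xylosidases release xylose from xylan. In orchid mycorrhiza the fungus forms coils inside cortical cells, each surrounded by a plant membrane and an interface that contains wall material.

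Gene counts summed to between 5364549 and 6019195 per LM library and between 4748078 and 5809054 per LS library. Reads that overlapped more than 1 gene and were counted for none took 3.78% to 4.16% of a file in LM and 7.46% to 11.3% in LS, without overlap (p = 0.1 in a two-sided exact permutation test, which cannot go lower with 3 against 3). Their part in the values below was not tested. The annotated plant genes include no defining marker of root tissue. Of 6 genes of green tissue, summed levels were 1.26 to 3.00 CPM in LM and 10.5 to 60.5 CPM in LS, with LS2 highest. The chlorophyll a-b binding gene MSTRG.13 was at 0 counts in LM3, LM4 and LS3 and had 69 counts in LS2. MSTRG.2471, an oxygen-evolving enhancer gene, also peaked in LS2 (175 counts), and both genes overlapped between conditions. For MSTRG.2469, MSTRG.303, MSTRG.445 and MSTRG.2502 all LM libraries lay below all LS libraries, with 18 counts or fewer in each library. Of the 719 plant genes tested below, 11.5% separated in this direction. CPM are counts scaled to the reads aligned to plant transcripts (per 1000000 such reads) and by edgeR's TMM factors, so that fungal reads in LM do not lower the plant values. In such bulk samples, fewer cells of a type and less RNA per cell cannot be told apart. CPM are not divided by gene length, so levels are compared between libraries and not between genes.

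The question asked of each gene was whether its transcript level differed between LM and LS roots. Of the 4 glycoside hydrolases, 3 had enough counts to be tested, and edgeR's quasi-likelihood test called 0 of them at an adjusted p under 0.05. That test called 0% of the 719 plant genes tested, while 113 of them (15.7%) had an unadjusted p under 0.05. DESeq2, which called 7.39% of the 1002 plant genes it gave an adjusted p, also called 0 of the 3. So did limma-voom, which called 0 of all 719. An edgeR fit of all genes in the files, whatever their organism, called 3.09% of 22268 and 0 of the 3. The beta-amylase was the gene whose LM and LS libraries stood apart, and the fucosidase and the xylosidase overlapped between conditions. The XTH was close to absent, with counts in 1 library of each condition.

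The beta-amylase MSTRG.677 resembles BAM1 and BAM3, plastid enzymes of *Arabidopsis*. Its counts were 110, 125 and 91 in LM3, LM4 and LM6, and 74, 71 and 57 in LS2, LS3 and LS6. In CPM these were 24.9, 31.5 and 19.5 in LM, against 16.0, 15.0 and 15.0 in LS. All LM libraries lay above all LS libraries, and LM6 was the LM library nearest to LS. Of the 719 plant genes, 12.9% separated in this direction.

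Its mean was 25.3 ± 6.02 CPM in LM and 15.3 ± 0.569 CPM in LS (SD, n = 3 each). The log2 FC of LM over LS was 0.72 ± 0.26 (SE), a 1.65-fold higher level with a 95% interval from 1.05 to 2.59. The adjusted p of edgeR was 0.274, above the threshold of 0.05, and 0.193 to 0.598 over the alternatives tried. The unadjusted p was 0.0351 in edgeR, the 92nd smallest of the 719. In the other edgeR fits it ranged from 0.0245, without LM6, to 0.271, across all genes with the sum of gene counts and TMM factors. The libraries stayed apart with plant reads alone, with DESeq2 size factors and with the sum of gene counts as library sizes. When TMM factors were taken over all genes of the files, the lowest LM library was at 14.34 CPM and the highest LS library at 14.27 CPM.

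**Figure D1:**
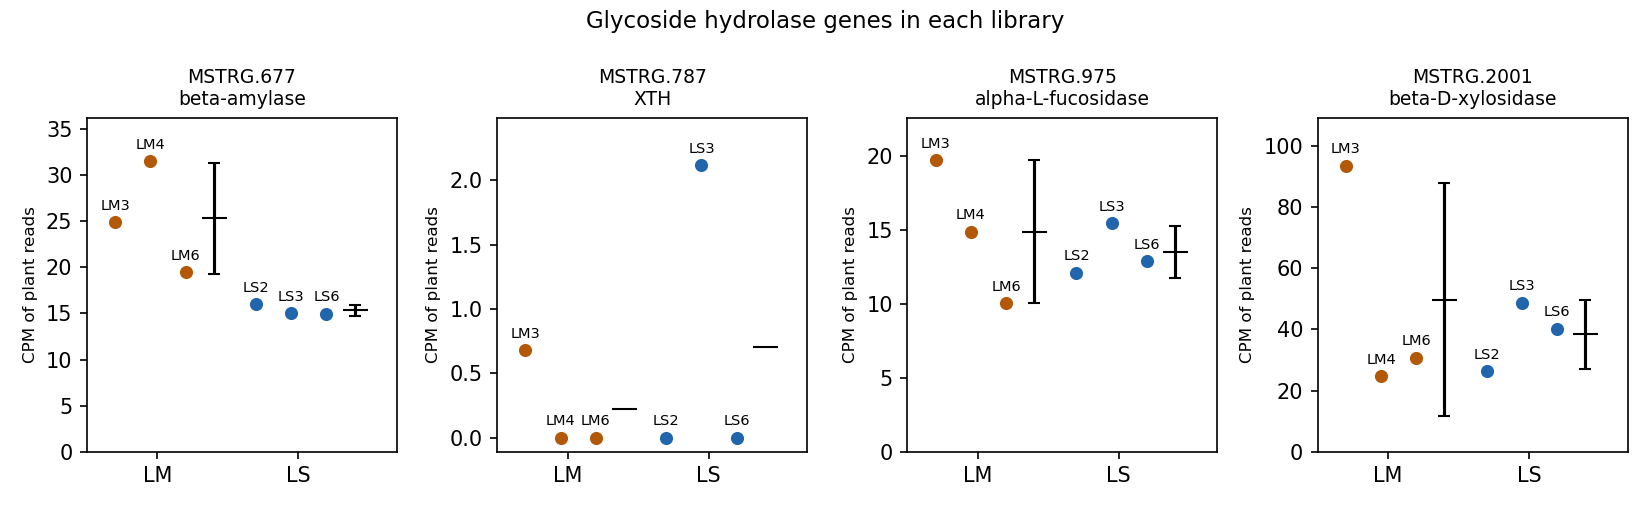
Level of the 4 glycoside hydrolase genes in CPM of plant reads (vertical axis, a separate scale for each gene) in each LM (orange) and LS (blue) library; bars give the mean ± SD of 3 libraries, and for MSTRG.787 the mean only. The LM points of MSTRG.677 sit between 19.5 and 31.5 CPM, all above LS, whereas the 3 other genes overlap and LM3 is their highest LM library.

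The XTH MSTRG.787 had 3 counts in LM3 and 0 in LM4 and LM6, against 10 counts in LS3 and 0 in LS2 and LS6. Its level was 0.679 CPM in LM3 and 2.12 CPM in LS3. These 13 counts were too few for edgeR's filter. The ratio of LM to LS was 0.302, with a 95% counting interval from 0.0535 to 1.17 that includes equal levels, and a two-sided exact permutation test of the group means gave p = 1. A difference was not detectable at this depth, since single libraries hold all the counts of each condition.

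A second XTH in the annotation, MSTRG.2222, had more counts, although dbCAN2 gave it no family. Counts of 366, 432 and 293 in LM stood against 298, 240 and 239 in LS. In CPM these were 82.8, 109 and 62.7 in LM, against 64.4, 50.8 and 62.8 in LS. LM6 fell among the LS libraries, and the other LM libraries lay above all of them. The log2 FC was 0.52 ± 0.26 (SE, adjusted p = 0.372, edgeR), with a 95% interval on the linear scale from 0.919-fold to 2.22-fold. With plant reads as library sizes and no TMM factors, its LM libraries lay above all LS libraries. The levels were then 65.4 CPM or more in LM and 59.0 CPM or less in LS. That scaling moved the median log2 FC of the plant genes by 0.075. The groups overlapped with DESeq2 size factors and with the sum of gene counts as library sizes.

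The alpha-L-fucosidase MSTRG.975 resembles FUC95A of *Arabidopsis*, an enzyme of the apoplast. Counts were 87, 59 and 47 in the LM libraries and 56, 73 and 49 in the LS libraries. These were 19.7, 14.9 and 10.1 CPM in LM3, LM4 and LM6, against 12.1, 15.5 and 12.9 CPM in LS2, LS3 and LS6. The LM libraries thus spanned a wider range than the LS libraries and held both the highest and the lowest level.

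The means of MSTRG.975 were 14.9 ± 4.81 CPM in LM and 13.5 ± 1.76 CPM in LS (SD, n = 3 each). The log2 FC of 0.14 ± 0.33 (SE, adjusted p = 0.866, edgeR) lay within its error. Its 95% interval runs from 0.627-fold to 1.94-fold. The sign turned to -0.11 without LM3 and to -0.10 in the fit across all genes with the sum of gene counts and TMM factors, a scaling that moved the median log2 FC of the plant genes by -0.25. It was 0.22 in the fit across all genes with plant reads and no TMM factors.

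The probable beta-D-xylosidase MSTRG.2001 had the widest spread of the tested enzymes. It had 413 counts in LM3, 98 in LM4 and 144 in LM6, against 122, 230 and 153 counts in LS2, LS3 and LS6. These were 93.5, 24.7 and 30.8 CPM in LM, against 26.4, 48.7 and 40.2 CPM in LS. LM3 was the highest library and LM4 the lowest, a 3.78-fold range within LM, where the range within LS was 1.85-fold. LM4 and LM6 lay below LS3 and LS6.

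The means of MSTRG.2001 were 49.7 ± 38.1 CPM in LM and 38.4 ± 11.3 CPM in LS (SD, n = 3 each). The log2 FC was 0.37 ± 0.57 (SE, adjusted p = 0.775, edgeR), with a 95% interval from 0.488-fold to 3.42-fold. LM3 alone set the direction. Without it the log2 FC was -0.46 ± 0.33 (SE, adjusted p = 0.573, edgeR). It was 0.72 without LM4, 0.64 without LM6 and 0.19 without LS2.

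**Figure D2:**
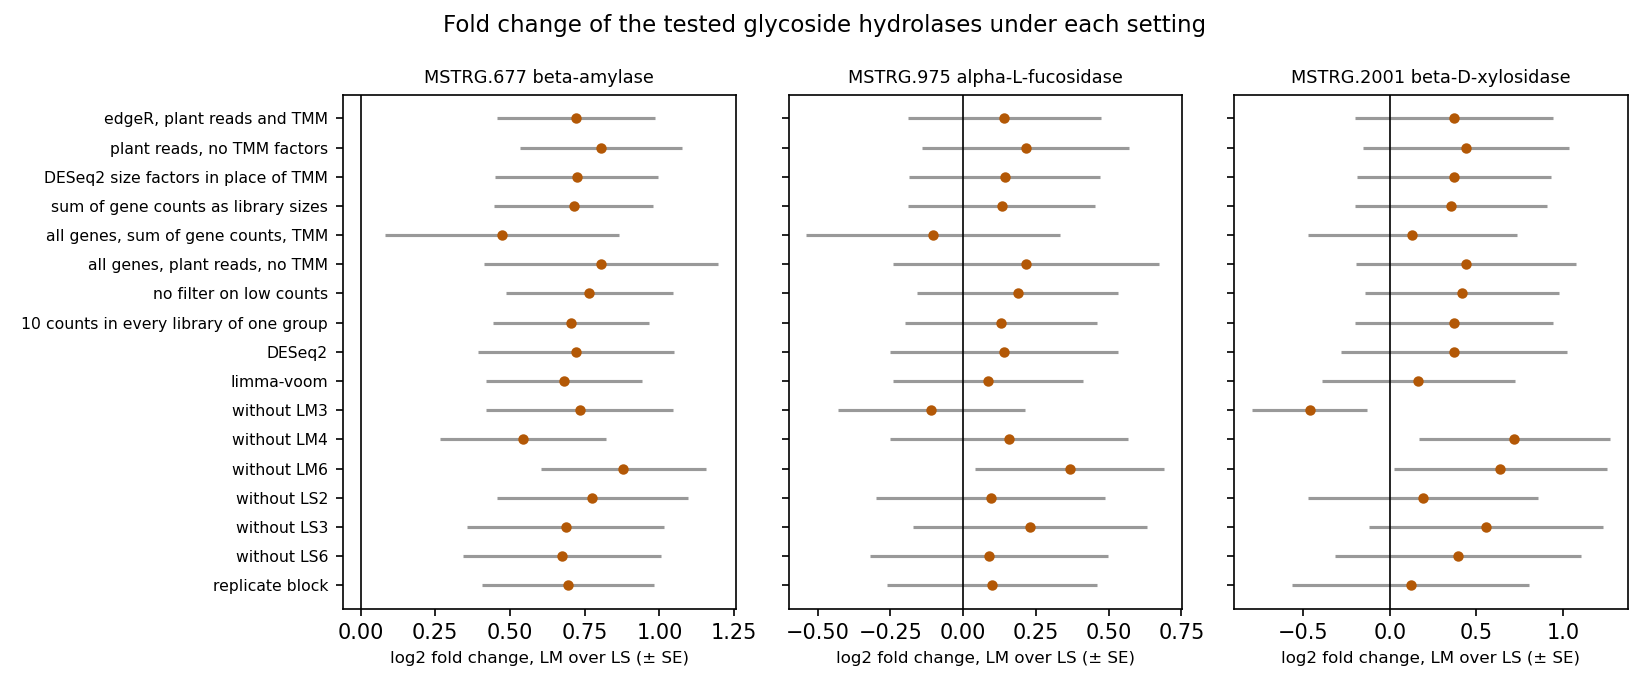
The log2 FC of LM over LS (horizontal axis, a separate scale for each gene, bars ± 1 standard error) of the 3 tested glycoside hydrolases under each setting, with each library left out in turn in the lower rows. MSTRG.677 stays between 0.47 and 0.88, MSTRG.975 falls below 0 without LM3 and in one fit across all genes, and MSTRG.2001 reaches -0.46 without LM3.

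The spread between libraries of a condition differed among the enzymes. The SD of log2 CPM within conditions was 0.24 for the beta-amylase, 0.36 for the fucosidase and 0.79 for the xylosidase. The median over the 719 plant genes tested was 0.49, so the beta-amylase and the fucosidase varied less than the median gene and the xylosidase varied more. For MSTRG.787, MSTRG.975 and MSTRG.2001, LM3 was the highest LM library and LS3 the highest LS library, a pattern described after the values were seen. Of the 719 plant genes, 82 (11.4%) showed it.

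Patterns across the 6 libraries were compared by the root mean square difference of log2 CPM, each gene centred on its own mean. The beta-amylase and the fucosidase differed by 0.39, the fucosidase and the xylosidase by 0.47 and the beta-amylase and the xylosidase by 0.75. Of the 718 other tested plant genes, the one nearest to the beta-amylase was MSTRG.2198, a probable dehydroascorbate reductase of the glutathione S-transferase family, which recycles ascorbate (0.083). The XTH MSTRG.2222 came next (0.14), followed by MSTRG.1415, a subunit of the mitochondrial NADH dehydrogenase (0.15).

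MSTRG.2198 had 58.2, 72.1 and 42.6 CPM in LM and 31.8, 35.1 and 34.4 CPM in LS. It shared with the beta-amylase a peak in LM4 and a low spread in LS. The fucosidase was nearest to MSTRG.2565 (0.11), annotated as a carboxymethylenebutenolidase homolog and with a second name, cut short, that begins "Endo-1,3". Next came the pentatricopeptide repeat genes MSTRG.424 (0.14) and MSTRG.1377 (0.17), whose products bind organelle RNA. The xylosidase had no neighbor as close. MSTRG.1789, a phosphoribosylaminoimidazole carboxylase of purine synthesis, differed from it by 0.24, the peptidyl-prolyl isomerase MSTRG.1471 by 0.31 and the amidase MSTRG.1633 by 0.32.

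Other genes of starch, sucrose and the cell wall among the annotated plant genes numbered 11, and 6 of them were tested. At an adjusted p under 0.05 edgeR called 0, and at an unadjusted p under 0.05 there were 0 higher and 1 lower in LM, where the shares over all 719 genes were 8.34% and 7.37%. Their median log2 FC was -1.21, against 0.37 for the 3 tested glycoside hydrolases and -0.01 for all 719 genes. The log2 FC was below 0 for 4 of the 6 and for 0 of the 3 glycoside hydrolases, beside 369 of all 719 genes. These differences were not tested. The median of the 6 depended on LS2, without which it was -0.18.

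**Figure D3:**
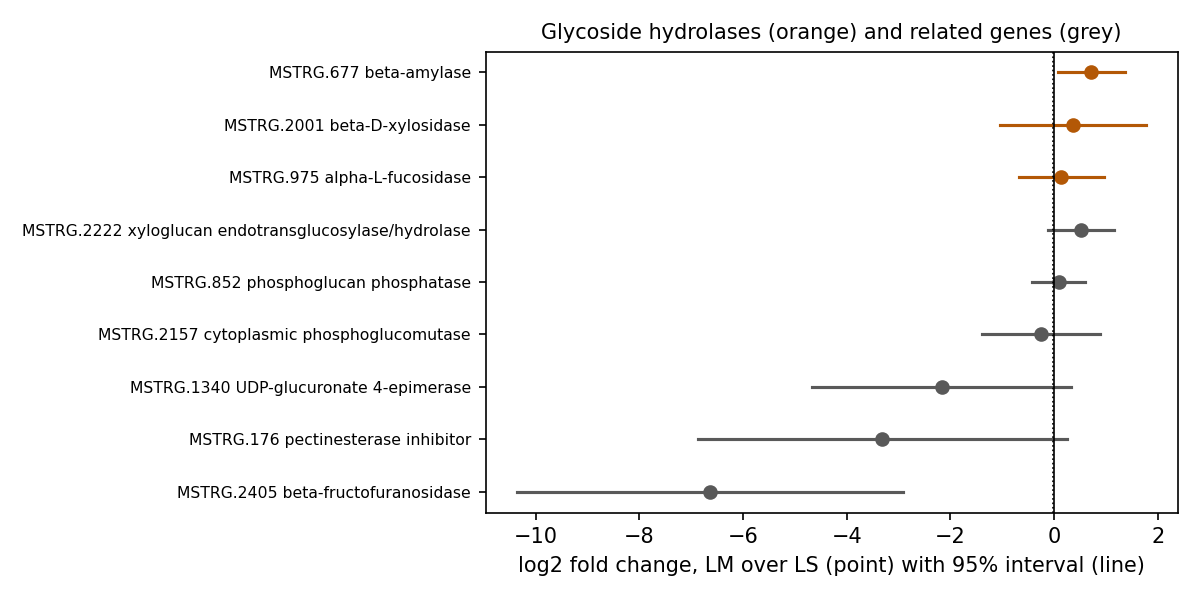
The log2 FC of LM over LS (horizontal axis) with its 95% interval (line) for the 3 tested glycoside hydrolases (orange) and the 6 tested related genes (grey), where the dotted line marks the median of -0.01 over all 719 plant genes. The intervals of MSTRG.677 and MSTRG.2405 do not reach 0, on opposite sides, and neither gene passed the adjusted threshold in edgeR.

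On the starch and sucrose side, the phosphoglucan phosphatase MSTRG.852, whose *Arabidopsis* counterparts SEX4 and LSF1 act in starch breakdown, had 38.5, 29.7 and 37.7 CPM in LM. It had 35.4, 33.0 and 31.3 CPM in LS. The groups overlapped, with a log2 FC of 0.09 ± 0.20 (SE, adjusted p = 0.868, edgeR) whose sign turned to -0.16 in the fit across all genes with the sum of gene counts and TMM factors, but not in that with plant reads (0.17). Its 95% interval, from 0.749-fold to 1.50-fold, was narrower than that of the beta-amylase. The cytoplasmic phosphoglucomutase MSTRG.2157, which links glucose phosphates to sucrose and starch metabolism, had a log2 FC of -0.25 ± 0.46 (SE, adjusted p = 0.811, edgeR). MSTRG.2154, of the same Trinity gene, had 1 to 3 counts in each library.

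The soluble beta-fructofuranosidase MSTRG.2405, an invertase that splits sucrose, was counted 0, 0 and 2 times in LM and 30, 200 and 17 times in LS. All LM libraries lay below all LS libraries, a separation found for 11.5% of the 719 genes in this direction. The ratio of LM to LS was 0.00816, with a 95% counting interval from 0.000983 to 0.0298. The interval of the edgeR fit, which includes the spread between libraries, was wider, from 0.000760-fold to 0.133-fold. LS3 held 200 of the 247 LS counts, and the log2 FC of -6.64 was -4.95 without LS3. Without LM6, the one LM library with counts, it was -9.25, a value that depends on edgeR's prior count. The adjusted p of edgeR was 0.186, and 0.00164 in DESeq2, which called 7.39% of the plant genes it gave an adjusted p. Over the alternatives tried its adjusted p ranged from 0.00164 to 0.351. MSTRG.2406 belongs to the same Trinity gene, so reads may be divided between the pair. It had 0 counts in every LM library and 4, 9 and 0 counts in LS. LS6 was thus at 0 like the LM libraries. A two-sided exact permutation test of the group means gave p = 0.4, the lowest it can give with counts in only 2 libraries. The 95% counting interval of the ratio of LM to LS ran from 0 to 0.331.

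On the cell wall side, the alpha-expansin MSTRG.861, a protein that loosens the wall, was counted 3, 2 and 1 times in LM and 4, 124 and 1 times in LS. LS3 held nearly all of its counts, and it did not pass the filter. The UDP-glucuronate 4-epimerase MSTRG.1340, which makes the sugar nucleotide for pectin, had 150, 153 and 145 CPM in LM and 1636, 94.4 and 282 CPM in LS. The LM libraries were close together, whereas LS2 stood far above LS3. Its log2 FC of -2.16 ± 1.02 (SE, adjusted p = 0.360, edgeR) was -0.30 without LS2.

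The pectinesterase inhibitor MSTRG.176 had 5, 4 and 13 counts in LM, against 209 in LS2, 5 in LS3 and 14 in LS6. LS2 again stood far above the other libraries. Its log2 FC of -3.31 ± 1.45 (SE, adjusted p = 0.345, edgeR) was -0.47 without LS2. LS2 was also the library with the highest summed level of green tissue genes, whose part in these values was not tested. The remaining wall genes, the mannan synthesis-related MSTRG.1617 and the glucomannan 4-beta-mannosyltransferase MSTRG.227, which build hemicellulose, had 1 to 14 counts in each library. Their ratios of LM to LS were 0.698 (95% counting interval from 0.263 to 1.76) and 0.828 (0.455 to 1.49).

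**Figure D4:**
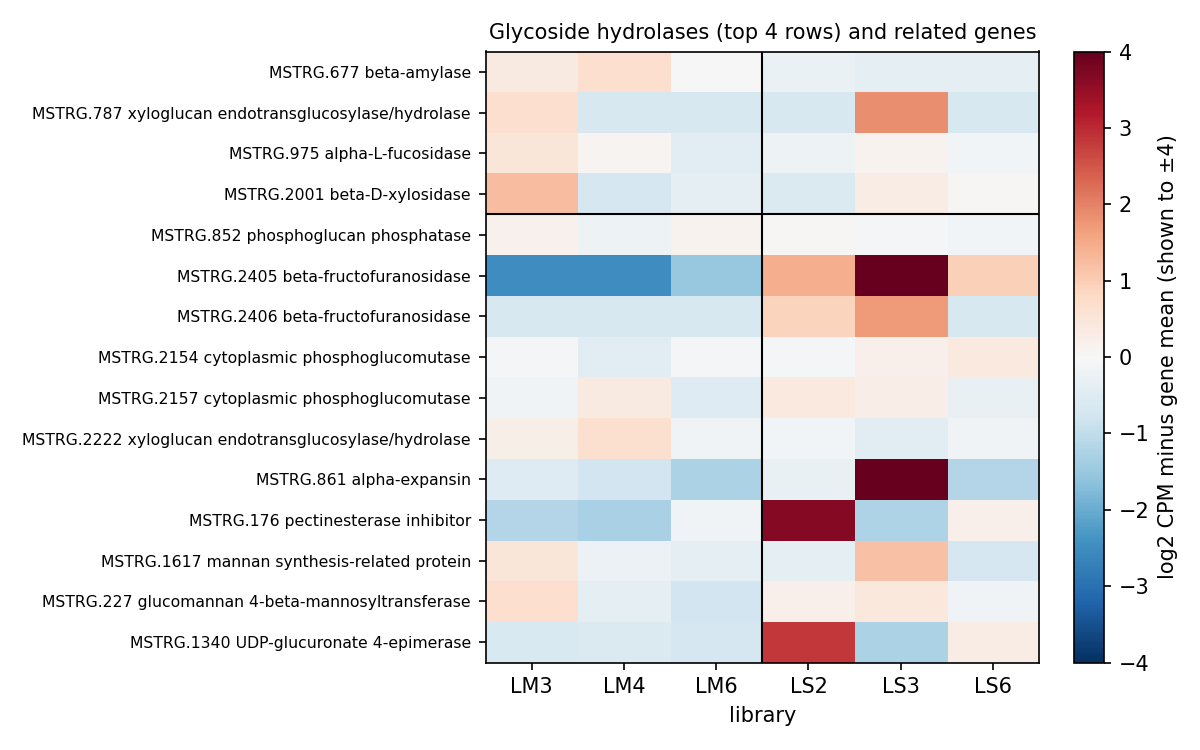
Log2 CPM of the 4 glycoside hydrolases (top rows) and the 11 related genes in each library (columns, LM left of the line), each gene centred on its mean over the 6 libraries, where red is above and blue below that mean and the color scale ends at ±4. The glycoside hydrolases stay within 2 of their means, whereas the highest cells are those of MSTRG.2405 and MSTRG.861 in LS3 and of MSTRG.176 and MSTRG.1340 in LS2.

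The glucan endo-1,3-beta-glucosidases of family GH17, which can act on fungal as well as plant glucans, are another set of glycoside hydrolases in the annotation. Of 10 genes 8 passed the filter, with 5 higher and 1 lower in LM at an unadjusted p under 0.05, against 8.34% and 7.37% of all 719 genes, while edgeR called 0 at an adjusted p under 0.05. MSTRG.2019 and MSTRG.2020, both among the 5, share a Trinity gene, as do MSTRG.2422 and MSTRG.2423, so they are not independent. The median log2 FC of the 8 tested GH17 genes was 2.39. Among the 3 tested enzymes of starch and of the plant cell wall, 1 was higher in LM at an unadjusted p under 0.05, where 8.34% of the 719 genes were, and the largest log2 FC was 0.72. The difference between these sets was not tested.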

How the data were processed

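Counts from paired-end sequencing of *L. abortivum* root RNA were analysed, 3 LM and 3 LS libraries, with groups taken from the sample titles. The deposited files hold whole-number counts per assembled gene, which the authors made with bbduk, Trinity, HISAT2 2.0.4, StringTie 1.3.5 and HTSeq, without normalization. The strand setting is not given in the sources used here, so reads of overlapping antisense genes cannot be told apart. The 5 rows that name no gene, 68.3% to 72.8% of a file, were left out.

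Names came from the first 1159 rows of the study's plant gene table, the part used here. Its columns of fold changes and p-values, and the column means, were not used. Reads aligned to plant transcripts, from the study's alignment summary, served as library sizes for these genes, with TMM factors over them. Differences were tested in R 4.3.3 with edgeR 4.0.16 (filterByExpr, minimum count 10, quasi-likelihood test without covariates, Benjamini-Hochberg adjustment over the 719 genes that passed). DESeq2 1.42.0 and limma 3.58.1 served as alternatives. Log2 CPM used a prior count of 2. Counting intervals are exact, cover 95% and use the counts summed over the libraries of a condition. They therefore include counting error only and not the spread between libraries. Reads carry no molecular identifiers. Replicate libraries of a condition differed by more than sampling noise. P-values measure the spread between 3 libraries a condition.

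Named genes were the 4 glycoside hydrolases, the 11 related genes, and the 3 tested plant genes nearest in pattern to each tested enzyme. GH17 genes were only counted. These genes and lists were chosen with earlier results of these data known. The scripts were tested on simulated data. No sequence of these assembled genes was used here.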

Additional observations from a re-analysis of the deposited data

How the results depend on the processing

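With the alternatives tried for normalization, library sizes, filter, tool, left-out libraries and the replicate block, edgeR, DESeq2 and limma-voom called 0 of the 3 tested glycoside hydrolases. Leaving out 1 library at a time, the log2 FC ranged from 0.54 to 0.88 for MSTRG.677, from -0.11 to 0.37 for MSTRG.975 and from -0.46 to 0.72 for MSTRG.2001, where the negative ends came without LM3. In the fit across all genes with the sum of gene counts, that of MSTRG.975 was -0.10 and that of MSTRG.852 was -0.16. The log2 ratio of MSTRG.787 was -1.73, and -2.35 to -1.09 with a library left out, while it could not be given without LM3 or LS3. The median log2 FC of the 6 related genes ranged from -1.54 to -0.18 with a library left out. The number of plant genes called was 0 in the quasi-likelihood fit and in limma-voom, and 4 in both fits across all genes. It was 4 when a minimum of 10 counts was asked of all libraries of a condition, and 74 (7.39%) in DESeq2.

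The titles number the replicates, but whether same-numbered LM and LS libraries are related is not stated. Same-numbered libraries had correlations of -0.056, 0.16 and 0.14 between their deviations from the group means. The other pairs of an LM and an LS library ranged from -0.23 to 0.099. With the replicate block the log2 FC was 0.69 for MSTRG.677, 0.10 for MSTRG.975 and 0.12 for MSTRG.2001. It was -1.19 for MSTRG.1340 and -1.82 for MSTRG.176, the median of the 6 related genes was -0.72, and the number of calls stayed at 0. Among the 4 glycoside hydrolases, depth limits MSTRG.787 most, at 13 counts in all.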
